A study of Mus musculus with 18 samples.

Results

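A set of 10 genes by which skeletal muscle releases and takes back calcium was followed through 5 sorted cell populations of mouse muscle and of a hedgehog-driven tumor. They were Ryr1, Cacna1s, Stac3, Trdn, Casq1, Casq2, Atp2a1, Atp2a2, Sln and Mrln, 10 of the 22180 genes that had a probe set with a single gene symbol on the arrays. Each gene was found by its symbol, and where it had more than 1 probe set (only Ryr1 did) the probe set was chosen by its mean over all 18 arrays. The genes were also selected on results of the same arrays, in which Sln in the tumor and Mrln in the muscle were already known to stand out. For these 2 genes the differences in the comparisons concerned are therefore given as values, with no test.

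The study measured gene expression in RNA of cells sorted by flow cytometry, 1 array per sample, with 3 arrays for each muscle population and 4 for each tumor population. The muscle came from the sternocleidomastoid, a neck muscle, of mice at postnatal day 21 (strain B6;SJL), and was divided into tdTomato-positive (marked) and tdTomato-negative (unmarked) cells. The tumors (strain BJ;SJL;B6.129) were divided into Tom-/Pecam1-, Tom+/Pecam1- and Tom+/Pecam1+ cells, and repeats 1 to 3 were of day 48 and repeat 4 of day 38. All mice carried aP2-Cre/+ and the tdTomato reporter, which is switched on for good in cells where Cre has acted and in their descendants. The tumor mice carried in addition SmoM2/+, an always active form of Smoothened that turns on hedgehog signaling. The aP2 promoter is known to be active in fat cells and in part of the endothelium, so the mark follows Cre activity and not 1 cell type. Muscle cells were not divided by Pecam1, a surface protein of endothelial cells. All tissues were digested for 1 h with collagenase B and Dispase II, so that the sorted cells of muscle are mostly its mononuclear cells and not whole fibers. The series concerns the origin of fusion-negative rhabdomyosarcoma, a tumor with skeletal muscle features, from endothelial progenitors.

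In a muscle fiber the action potential runs down the transverse tubule and is sensed by Cacna1s, the pore subunit of the voltage-gated calcium channel there. Cacna1s is coupled, with the help of the adaptor Stac3, to Ryr1, the channel through which the sarcoplasmic reticulum releases its calcium. Inside the reticulum Casq1 and Casq2 hold calcium in store near the channel, and Trdn anchors them to it. The pumps Atp2a1 (SERCA1, the fast-fiber form) and Atp2a2 (SERCA2, of slow fibers, heart, smooth muscle and, as a splice form, most other cells) return calcium to the store. Sln (sarcolipin) and Mrln (myoregulin) are small membrane proteins that restrain the pumps. Many genes of differentiated muscle carry E-boxes, the sites bound by MyoD and its relatives, near their starts.

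The promoters of 3 of the genes are shown because their levels followed different courses through the populations: Atp2a1 and Casq1 were higher in the marked than in the unmarked Pecam1- tumor cells, whereas Casq2 did not pass that test. They are RefSeq windows on GRCm38.p6 from 250 bases before to 50 bases after the annotated start, written 5′ to 3′ on the gene's strand, with each E-box (CANNTG, which reads the same on both strands) in capitals. Atp2a1 lies at chr7:126463024-126463323 on the minus strand, Casq1 at chr1:172219846-172220145 on the minus strand and Casq2 at chr3:102086165-102086464 on the plus strand.
Atp2a1: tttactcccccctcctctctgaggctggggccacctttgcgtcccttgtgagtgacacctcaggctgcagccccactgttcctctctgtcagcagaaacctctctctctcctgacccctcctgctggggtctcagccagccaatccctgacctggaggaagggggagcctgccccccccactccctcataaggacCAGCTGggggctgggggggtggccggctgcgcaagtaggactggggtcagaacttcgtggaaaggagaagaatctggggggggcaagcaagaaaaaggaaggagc
Casq1: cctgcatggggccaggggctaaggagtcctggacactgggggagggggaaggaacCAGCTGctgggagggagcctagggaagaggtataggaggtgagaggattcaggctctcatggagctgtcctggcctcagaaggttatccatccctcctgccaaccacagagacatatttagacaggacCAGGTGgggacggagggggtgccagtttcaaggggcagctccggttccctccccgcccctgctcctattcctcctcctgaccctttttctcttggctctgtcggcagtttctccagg
Casq2: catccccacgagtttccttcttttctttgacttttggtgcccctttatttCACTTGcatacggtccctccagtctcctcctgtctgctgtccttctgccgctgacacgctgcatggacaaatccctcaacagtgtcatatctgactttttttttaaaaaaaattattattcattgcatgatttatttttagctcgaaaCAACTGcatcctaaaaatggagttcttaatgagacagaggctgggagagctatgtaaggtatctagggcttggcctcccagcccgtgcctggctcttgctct
The Atp2a1 and Casq1 windows each held the form CAGCTG, which also matches CANNTG, the Casq1 window held CAGGTG in addition, and the Casq2 window held CACTTG and CAACTG. A window was given for 6 of the 10 genes (Ryr1, Cacna1s, Casq1, Casq2, Atp2a1 and Mrln). An E-box was found in 5 of these 6, against 72.3% of 32851 windows of the same length, and CAGCTG in 3 of the 6 (Cacna1s, Casq1 and Atp2a1), against 16.3%. The Ryr1 window held no CANNTG and the Mrln window no CAGCTG, and both genes were also higher in the marked Pecam1- tumor cells. A link between sites and levels was not tested. The MEF2 motif was in 0 of the 6 windows and in 0.557% of all.

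The sorted populations matched their labels in the genes that define them. Pecam1 read 11.11 to 11.23 on the log2 scale in the marked muscle cells and 11.57 to 12.00 in the Tom+/Pecam1+ tumor cells, and 6.91 to 8.38 in the other populations. Markers of differentiated skeletal muscle (14 genes, among them Acta1, Ckm and Ttn) had a mean log2 level of 5.09 to 5.63 in marked muscle cells and of 5.69 to 6.07 in Tom+/Pecam1+ tumor cells, the lowest of the 5 populations. They had a mean of 6.40 to 7.97 in unmarked muscle cells, of 7.04 to 7.78 in Tom-/Pecam1- tumor cells and of 8.67 to 9.24 in Tom+/Pecam1- tumor cells. The array medians lay at 5.041 to 5.105 in muscle and at 5.410 to 5.438 in tumor, so levels across tissues are given as differences from the array's median ("centred"). Tumor and muscle also differed in age, strain and SmoM2, which cannot be told apart. Muscle repeats 1 and 2 stood apart: Bpifa2, a salivary gland gene, read 10.92 to 12.73 in these 4 arrays and 4.09 and 4.13 in repeat 3, and calls that do not hold without repeats 1 and 2 are named below. In sorted bulk RNA, fewer cells of a type and less RNA per cell cannot be told apart.

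**Figure D1:**
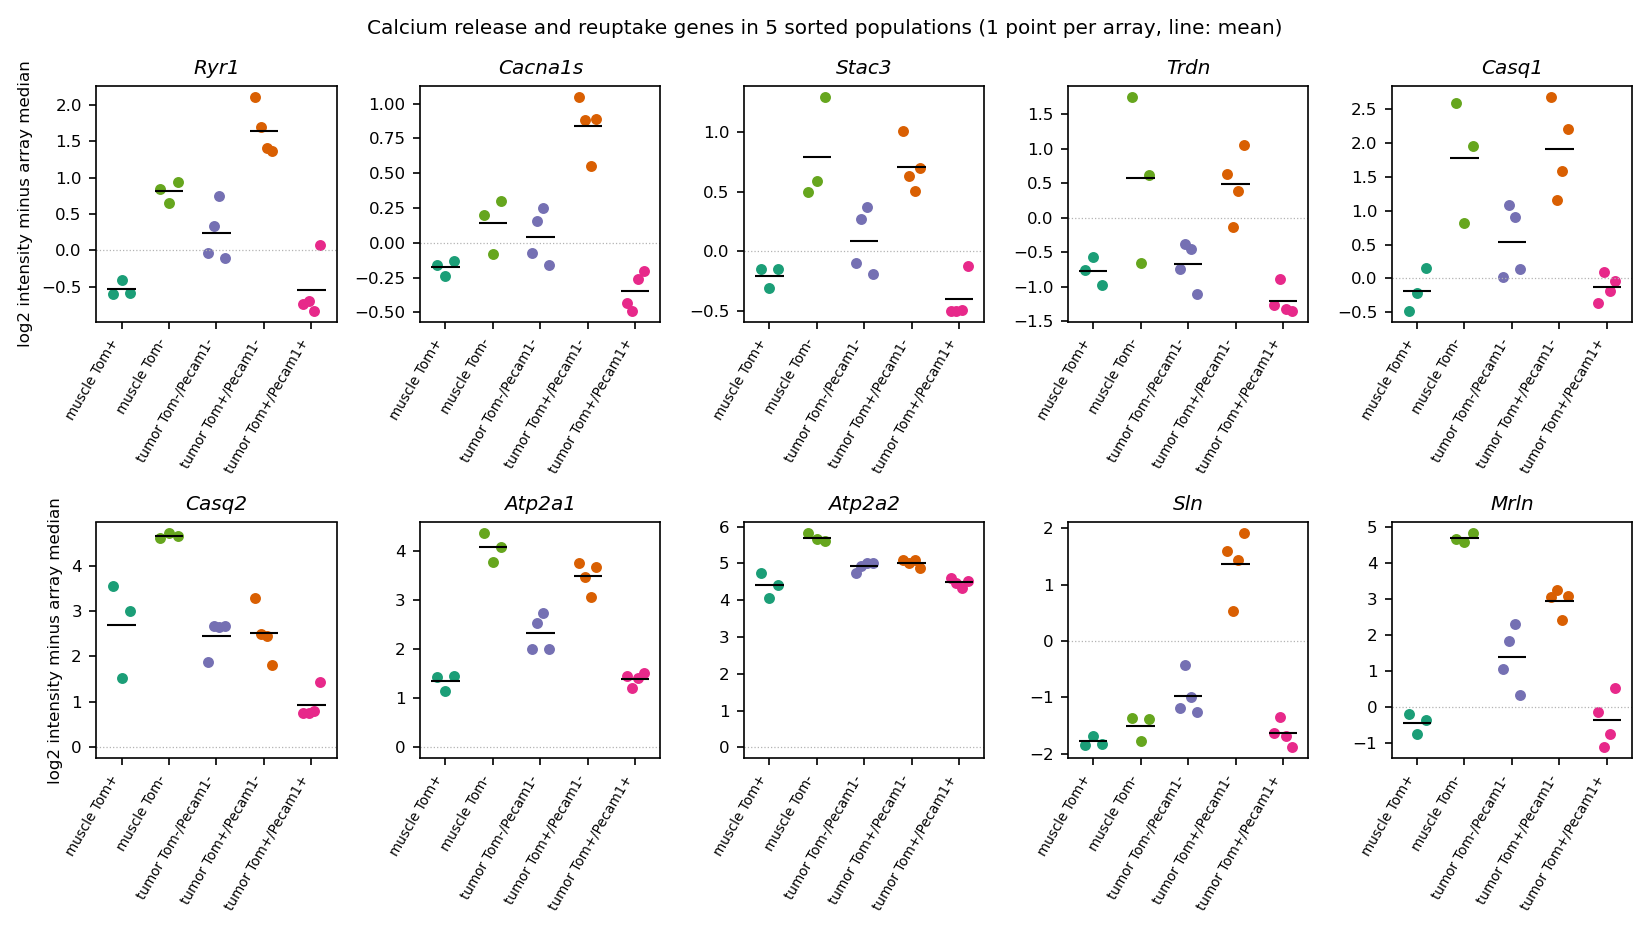
Centred log2 intensity (array's value minus the array's median, y axis) of each of the 10 genes in the 5 sorted populations (x axis), 1 point per array and a line at the mean of 3 or 4 arrays; the y axes differ between genes, and levels of different genes cannot be compared. Sln was above the array median in the 4 Tom+/Pecam1- tumor arrays and in no other array, whereas Mrln was highest in the 3 unmarked muscle arrays.

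In normal muscle the unmarked cells held the higher level of nearly all of this machinery, and the marked, endothelial-rich cells the lower. Of the 9 genes with a test, 7 were lower in the marked cells, 0 were higher and 2 (Cacna1s and Sln) did not pass an adjusted p of 0.05. Over all 16011 genes tested in this comparison 20.5% were lower and 19.1% higher, with a median difference of 0, and the median of the 10 calcium genes was -1.35. The largest of the 7 differences was that of Atp2a1, the fast-fiber pump. Muscle markers were lower in the marked cells as well: 12 of 14 markers of differentiated muscle (median -2.11) and all 7 of muscle precursors (median -3.61, with mean levels of 5.16 to 5.33 in marked and 8.31 to 8.88 in unmarked cells). The part of muscle cells in the differences of the calcium genes was not tested.

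The release channel Ryr1 read 5.93, 5.75 and 5.99 in the unmarked muscle arrays and 4.49, 4.68 and 4.45 in the marked ones. The groups did not overlap, and Ryr1 was 2.55-fold lower in the marked cells (log2 difference -1.35 ± 0.24 SE, adjusted p = 0.000229). Cacna1s read 5.29, 5.02 and 5.35 against 4.93, 4.84 and 4.91. These values too did not overlap, but the difference of -0.33 ± 0.14 did not pass the test (adjusted p = 0.069). Stac3 read 5.59, 5.69 and 6.35 in unmarked and 4.95, 4.77 and 4.89 in marked cells, 2.01-fold lower in the latter (-1.01 ± 0.19, adjusted p = 0.000417).

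Trdn and Casq1 varied widely among the unmarked muscle arrays. Trdn read 6.84, 4.44 and 5.66 there and 4.34, 4.51 and 4.06 in marked cells, so that the second unmarked array lay within the marked range. Its difference of -1.35 ± 0.41 passed the test (adjusted p = 0.0148), but not without the first unmarked array (-0.75, adjusted p = 0.0986). The call was also lost without the third marked array (adjusted p = 0.0554) and in a fit of the muscle arrays alone (adjusted p = 0.0682). Casq1, the calsequestrin of fast fibers, read 7.66, 5.92 and 7.0 in unmarked and 4.62, 4.86 and 5.20 in marked cells. The groups were apart, and Casq1 was 3.91-fold lower in the marked cells (-1.97 ± 0.41, adjusted p = 0.000802). The same second unmarked array was the lowest in the markers of differentiated muscle, with a mean of 6.40 against 7.97 and 7.75, and read 5.82 for Ckm against 9.63 and 8.16. The part of these markers in the spread of Trdn and Casq1 was not tested.

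Casq2, the calsequestrin of heart and slow fibers, had an even level in unmarked muscle (9.70, 9.81 and 9.70) and an uneven one in marked cells (8.64, 6.60 and 8.05). It was 3.93-fold lower in the marked cells (-1.97 ± 0.41, adjusted p = 0.000806). Markers of pericytes and smooth muscle (7 genes, such as Acta2, Myh11 and Rgs5) had a mean of 9.11, 7.84 and 8.68 in the same 3 marked arrays, the same order as Casq2, and of 10.51 to 10.68 in unmarked cells. Their part in the Casq2 values was not tested. With only repeat 3 left in muscle, neither calsequestrin passed the test, with differences of -1.80 for Casq1 (adjusted p = 0.0589) and -1.64 for Casq2 (adjusted p = 0.0549).

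Both pumps were lower in the marked muscle cells. Atp2a1 read 9.46, 8.89 and 9.14 in unmarked and 6.52, 6.25 and 6.5 in marked cells, a 6.69-fold difference (-2.74 ± 0.21, adjusted p = 1.06e-08). Atp2a2 read 10.91, 10.76 and 10.66 against 9.84, 9.13 and 9.45, a 2.47-fold difference (-1.31 ± 0.14, adjusted p = 7.43e-07). In the marked cells Atp2a2 was still at or above the 95th percentile of each array, and Atp2a1 at the 68th to 72nd.

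The 2 pump inhibitors did not share a course. Mrln read 9.74, 9.68 and 9.87 in unmarked muscle, at the 97th to 98th percentile of those arrays, and 4.91, 4.33 and 4.66 in marked cells. This is a 35.1-fold lower level (log2 difference -5.13), given without a test since it was known when the genes were chosen. Sln read 3.72, 3.33 and 3.67 in unmarked and 3.25, 3.40 and 3.22 in marked cells. The groups overlapped (-0.28 ± 0.27, adjusted p = 0.451), and all 6 muscle arrays lay between the 16th and 26th percentile, below the 40th percentile that was used to set dim genes apart. Sln was thus dim in both muscle populations, so a difference between them could hardly have been seen.

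In the tumor the direction was the opposite: among Pecam1- cells, the marked ones had the higher level of most of these genes. Of 9 genes with a test 7 were higher in the Tom+/Pecam1- than in the Tom-/Pecam1- cells and 0 were lower, while 13.4% of all genes tested were higher and 12% lower (4065 genes, and 2693 with the repeat number as a block). The deposited tumor values lack the variation common to a repeat number, so p-values within the tumor tend to be too small. The median difference of the 10 genes was 1.16, and that of all genes 0.03. Casq2 and Atp2a2 were the 2 genes that did not pass the test.

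Ryr1 read 5.40, 5.76, 6.17 and 5.31 in the unmarked cells of repeats 1 to 4 and 7.52, 7.11, 6.82 and 6.78 in the marked ones. It was 2.63-fold higher in the marked cells (1.40 ± 0.21, adjusted p = 0.000157), with no overlap. A second Ryr1 probe set, not used in the tests, had a mean of 5.67 ± 0.17 (SD, n = 4) in unmarked and of 6.23 ± 0.22 in marked cells, and likewise did not overlap, at 5.51 to 5.86 and 6.02 to 6.49. Cacna1s read 5.35, 5.58, 5.67 and 5.26 against 6.46, 6.29, 5.97 and 6.31, a 1.73-fold higher level (0.79 ± 0.12, adjusted p = 0.000148). Stac3 read 5.33, 5.69, 5.79 and 5.22 against 6.42, 6.04, 5.92 and 6.12, 1.53-fold higher (0.62 ± 0.17, adjusted p = 0.0116). The sensor, its adaptor and the channel were therefore each higher in all 4 marked arrays than in any unmarked one.

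Trdn read 4.68, 5.04, 4.96 and 4.30 in unmarked and 6.04, 5.29, 5.80 and 6.48 in marked cells, 2.23-fold higher (1.16 ± 0.36, adjusted p = 0.0242). This call was lost without the first or the fourth array of either population (differences of 0.97 to 1.14, adjusted p of 0.0583 to 0.0783), and without the day 38 repeat (0.82, adjusted p = 0.165). Casq1 read 5.45, 6.49, 6.33 and 5.56 against 8.09, 6.57, 7.01 and 7.63, 2.58-fold higher (1.37 ± 0.35, adjusted p = 0.00835). The groups were apart by little, 6.49 against 6.57, and without the day 38 repeat the difference was 1.13 (adjusted p = 0.0629). Casq2 read 7.31, 8.08, 8.05 and 8.07 in unmarked and 8.70, 7.92, 7.88 and 7.23 in marked cells, and the marked values lay on both sides of the unmarked ones (0.06 ± 0.35, 95% interval -0.69 to 0.80, adjusted p = 0.933).

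Of the pumps, Atp2a1 read 7.44, 7.95, 8.16 and 7.43 in unmarked and 9.17, 8.89, 8.48 and 9.11 in marked cells, a 2.25-fold higher level without overlap (1.17 ± 0.18, adjusted p = 0.000181). Atp2a2 read 10.18, 10.36, 10.42 and 10.42 against 10.49, 10.42, 10.50 and 10.30. Its difference of 0.08 ± 0.12 did not pass the test (adjusted p = 0.674), with a 95% interval of -0.17 to 0.34.

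Sln was higher in the marked Pecam1- tumor cells than in every array of the other populations. It read 7.01, 5.94, 6.86 and 7.33 in the Tom+/Pecam1- cells, 4.23, 4.99, 4.41 and 4.14 in the Tom-/Pecam1- cells and 3.78, 4.08, 3.74 and 3.54 in the Tom+/Pecam1+ cells. The 4 Tom+/Pecam1- arrays, at the 58th to 77th percentile of their own values, lay above all 14 other arrays, and the marked Pecam1- mean was 5.06-fold that of the unmarked (2.34 on the log2 scale) and 8-fold that of the marked Pecam1+ cells. Sln was above the 40th percentile in 1 of 4 unmarked Pecam1- arrays and in 0 of 4 Pecam1+ arrays, so these folds are taken against dim values and are not exact. The Sln values were known when the genes were chosen and carry no test. Mrln read 6.48, 7.25, 7.73 and 5.76 in unmarked and 8.46, 8.66, 7.82 and 8.49 in marked Pecam1- cells. It was 2.94-fold higher in the marked cells (1.56 ± 0.37, adjusted p = 0.00482).

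**Figure D2:**
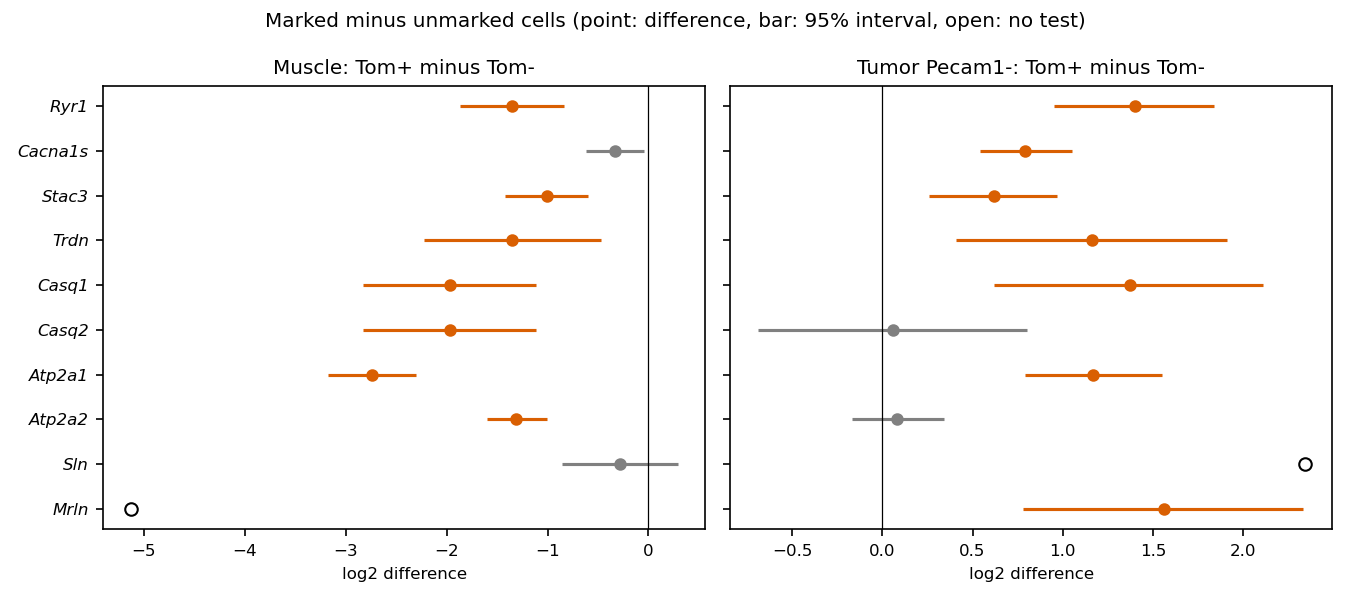
Log2 difference of marked minus unmarked cells (x axis) for each gene (y axis) in muscle, 3 arrays per population, and in Pecam1- tumor cells, 4 arrays per population; points are limma differences, bars 95% intervals, orange an adjusted p under 0.05, grey none, and open points the 2 differences that were not tested. In muscle all points lie below 0 and in tumor all lie above 0, with Casq2 and Atp2a2 near 0 in the tumor.

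The difference between these 2 contrasts was itself tested for the 8 genes other than Sln and Mrln. All 8 had a more positive marked-minus-unmarked difference in the tumor than in muscle, where 20.9% of all genes tested were higher in this sense and 18.5% lower. Atp2a1 had the largest such difference among the 8 (3.91 ± 0.27, adjusted p = 7.62e-09), and Cacna1s the smallest (1.12 ± 0.18, adjusted p = 9.53e-05). Casq2, which did not pass in the tumor contrast, passed here (2.03 ± 0.54, adjusted p = 0.00629), except when only muscle repeat 3 was left (1.70, adjusted p = 0.0694). The 2 contrasts were of unlike populations, since muscle was not divided by Pecam1 and its marked cells were rich in endothelial markers (mean log2 level of 7 markers 10.56 to 10.70, against 6.30 to 6.62 in the Tom+/Pecam1- tumor cells).

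Markers of other cells moved along with the tumor contrast. Of the 14 markers of differentiated muscle 11 were higher and 0 lower in the Tom+/Pecam1- cells (median difference 1.53), and all 7 markers of muscle precursors, such as Pax7, Myod1 and Myog, were higher (median 1.52). Leukocyte markers had a mean level of 9.46 to 10.33 in the Tom-/Pecam1- cells and of 7.44 to 7.78 in the Tom+/Pecam1- cells, all 7 lower in the latter (median -1.78). Pericyte and smooth muscle markers did not pass in either direction (0 of 7 higher, 0 of 7 lower), at 9.68 to 9.85 and 9.66 to 10.09. The part of these cells in the differences of the calcium genes was not tested. Among the unmarked arrays, repeats 2 and 3 had the higher levels of Ryr1, Cacna1s, Stac3, Trdn, Casq1, Atp2a1, Sln and Mrln. They also had the higher means of differentiated muscle markers (7.72 and 7.78, against 7.04 and 7.13 in repeats 1 and 4), whose part was not tested. The deposited tumor values lack the variation common to a repeat, so these higher values are tied to lower ones in the other populations of the same repeats.

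**Figure D3:**
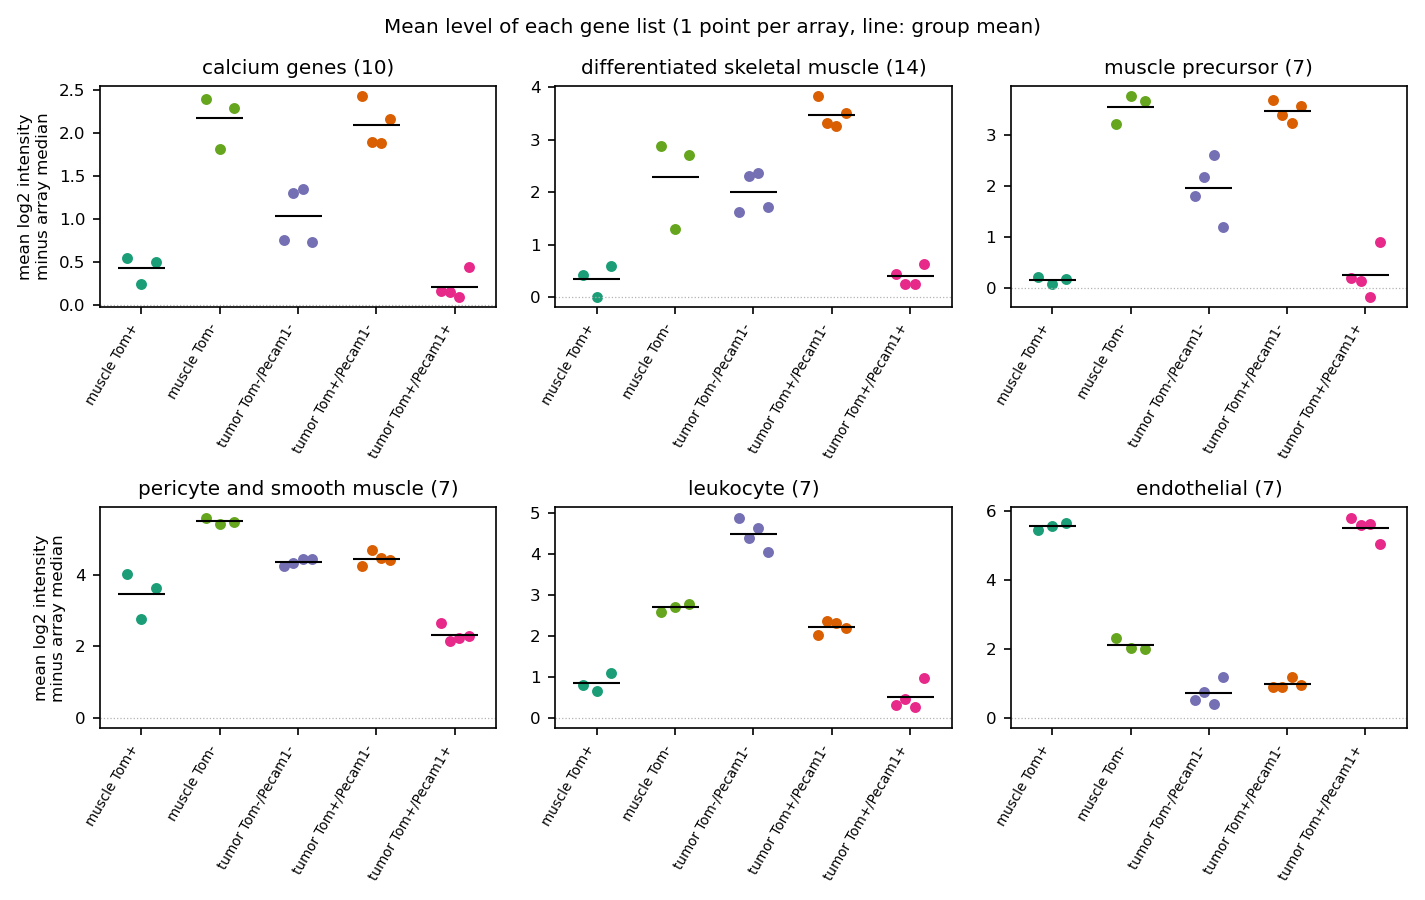
Mean centred log2 intensity (y axis) of the 10 calcium genes and of 5 marker lists in the 5 sorted populations (x axis), 1 point per array and a line at the population mean; the number of genes is in brackets. The calcium genes overlapped between unmarked muscle and Tom+/Pecam1- tumor cells (1.82 to 2.40 and 1.89 to 2.43), whereas the differentiated muscle markers were higher in the tumor cells (3.25 to 3.83 against 1.29 to 2.88).

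Among the marked tumor cells, the Pecam1+ fraction had the lower levels of this machinery. All 9 genes with a test were lower in the Pecam1+ than in the Pecam1- cells, where 23.6% of all genes tested were lower and 21% higher. This comparison and the previous one share the 4 Tom+/Pecam1- arrays and are not independent. Ryr1 read 4.68, 4.73, 4.60 and 5.50 in the Pecam1+ cells, a 4.52-fold lower level (-2.18 ± 0.21, adjusted p = 1.65e-07). Atp2a1 read 6.87, 6.64, 6.85 and 6.95, 4.25-fold lower (-2.09 ± 0.18, adjusted p = 3.68e-08). Mrln read 5.28, 4.30, 4.67 and 5.96, 9.89-fold lower (-3.31 ± 0.37, adjusted p = 9.18e-07). The Ryr1 and Mrln values of the fourth array were the highest of their group, and that array also had the highest mean of muscle precursor markers (6.35, against 5.27 to 5.62 in the others), whose part was not tested.

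Cacna1s read 4.99, 4.94, 5.17 and 5.24 in the Pecam1+ cells and Stac3 4.91, 4.93, 4.94 and 5.32, which made them 2.26-fold (adjusted p = 2.88e-07) and 2.15-fold lower (adjusted p = 3.55e-05). Trdn read 4.14, 4.54, 4.11 and 4.09 and was 3.21-fold lower (adjusted p = 0.000912), with all 4 arrays below the 40th percentile. Casq1 read 5.04, 5.52, 5.24 and 5.40 and was 4.07-fold lower (adjusted p = 0.000143). Casq2 read 6.16, 6.18, 6.24 and 6.87, 2.97-fold lower (-1.57, adjusted p = 0.00149), and Atp2a2 10.01, 9.90, 9.76 and 9.96, 1.44-fold lower (-0.52 ± 0.12, adjusted p = 0.00201). Casq2 and Atp2a2, which did not pass by the mark among Pecam1- cells, were thus lower in the Pecam1+ cells. In these all 7 pericyte and smooth muscle markers were lower too (mean level 7.57 to 8.06), whose part was not tested.

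The Tom+/Pecam1- tumor cells and the unmarked muscle cells, the populations with the highest levels, differed in both directions. On centred values, 2 of 8 tested genes were higher in Tom+/Pecam1- tumor cells than in unmarked muscle (Ryr1 and Cacna1s), 3 were lower (Casq2, Atp2a1 and Atp2a2) and 3 did not pass (Stac3, Trdn and Casq1). Of all genes 24.1% were higher and 23.0% lower, so the count of the calcium genes was near the background. This comparison shares arrays with both contrasts of the mark.

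Ryr1 had a centred mean of 1.64 ± 0.35 (SD, n = 4) in the tumor cells and of 0.81 ± 0.15 (SD, n = 3) in unmarked muscle, 1.78-fold higher in the tumor (0.83 ± 0.23 SE, adjusted p = 0.00673). Cacna1s had 0.84 ± 0.21 and 0.14 ± 0.20, 1.63-fold higher (0.70 ± 0.13, adjusted p = 0.000345). Casq2 went the other way, with 2.52 ± 0.61 in the tumor and 4.66 ± 0.05 in muscle, 4.40-fold lower in the tumor (-2.14 ± 0.38, adjusted p = 0.000222). Atp2a2 had 5.01 ± 0.09 and 5.70 ± 0.11, 1.60-fold lower (-0.68 ± 0.13, adjusted p = 0.000408). Atp2a1 had 3.50 ± 0.32 and 4.08 ± 0.30, 1.5-fold lower (-0.58 ± 0.20, adjusted p = 0.0213). Relative to the median of each array, the release channel and its voltage sensor were thus higher in the tumor cells and both pumps and Casq2 lower.

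The Atp2a1 call was the least firm, since it was lost on values that were not centred (-0.25, adjusted p = 0.276), without the first or the third unmarked muscle array (-0.44, adjusted p = 0.115, and -0.58, adjusted p = 0.0536) and without the third tumor array (-0.44, adjusted p = 0.0739). With only muscle repeat 3 left, Ryr1 (0.70, adjusted p = 0.183), Cacna1s (0.54, adjusted p = 0.0554) and Atp2a1 (-0.59, adjusted p = 0.148) no longer passed, whereas Casq2 and Atp2a2 did. Stac3 (-0.08 ± 0.18), Trdn (-0.08 ± 0.39) and Casq1 (0.13 ± 0.38) had adjusted p of 0.732 to 0.884.

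The inhibitors moved in opposite directions between the tissues. Sln had a centred mean of 1.37 ± 0.60 (SD, n = 4) in the Tom+/Pecam1- tumor cells and of -1.51 ± 0.23 (SD, n = 3) in unmarked muscle, a 7.35-fold higher level in the tumor (2.88). Mrln had 2.94 ± 0.37 and 4.68 ± 0.12, a 3.34-fold lower level (-1.74). For neither gene did the groups overlap, and neither difference was tested. Pln (phospholamban), the inhibitor of Atp2a2 in heart, slow fibers and smooth muscle, was 10.6-fold lower in the tumor cells than in unmarked muscle (-3.41 ± 0.29, adjusted p = 8.34e-08). Sln and Mrln were chosen with these values known, and Pln was named by its result. The directions of these 3 genes therefore say nothing of pump inhibitors in general. Pericyte and smooth muscle markers, of which 5 of 7 were lower in the tumor cells (median -1.07), moved in the same direction as Pln, Casq2 and Atp2a2, and their part was not tested.

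**Figure D4:**
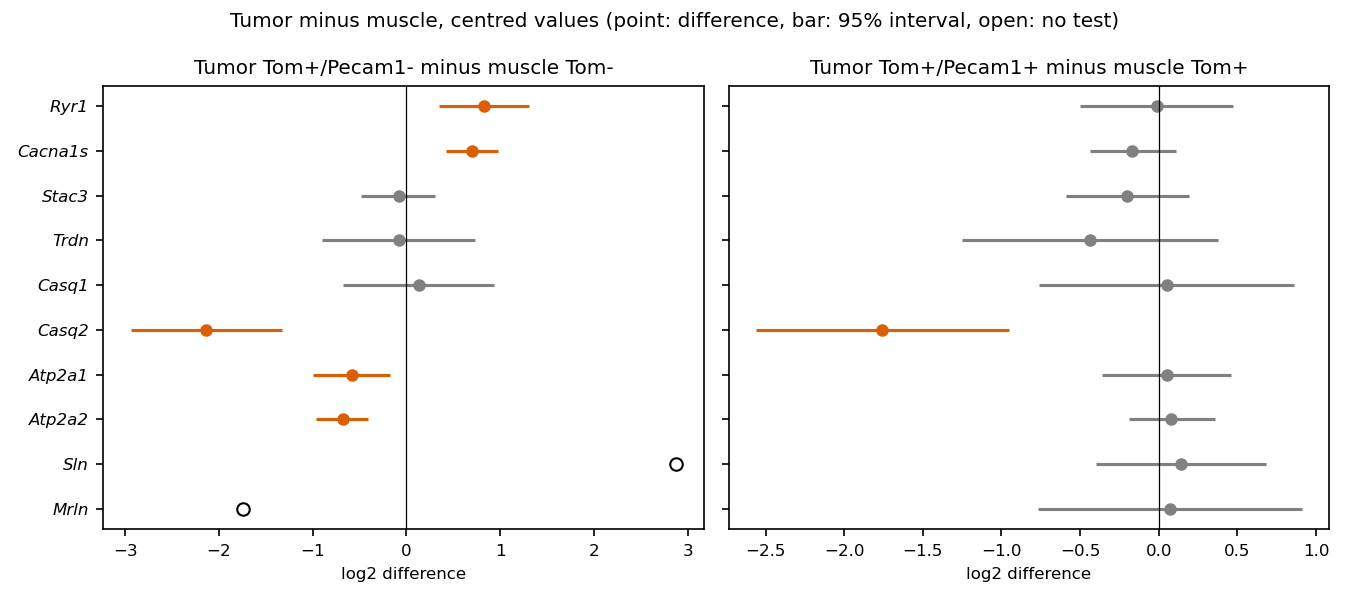
Log2 difference of centred values, tumor minus muscle (x axis), for each gene (y axis), between the Tom+/Pecam1- tumor cells (4 arrays) and unmarked muscle cells (3 arrays), and between the Tom+/Pecam1+ tumor cells (4 arrays) and marked muscle cells (3 arrays); points are limma differences, bars 95% intervals, orange an adjusted p under 0.05, grey none, and open points differences that were not tested. Sln at 2.88 and Mrln at -1.74 lie at opposite sides in the left panel, and in the right panel only Casq2, at -1.76, passes.

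Between the 2 endothelial-rich populations Casq2 was the only gene of the 10 to pass the test. Of the 10 genes 1 was lower in Tom+/Pecam1+ tumor cells than in marked muscle cells and 0 were higher, with 18.5% of all genes lower and 15.7% higher. Casq2 had a centred mean of 0.93 ± 0.33 (SD, n = 4) in the tumor cells and of 2.69 ± 1.05 (SD, n = 3) in muscle (-1.76 ± 0.38 SE, adjusted p = 0.00201). Of the 7 pericyte and smooth muscle markers 6 were lower in the tumor cells (median -1.22), whose part was not tested. The other 9 genes had differences of -0.44 to 0.14, with adjusted p of 0.352 to 0.971. Sln and Trdn were below the 40th percentile in every array of both populations, so for these 2 the comparison could show little. The 95% interval was -0.19 to 0.36 for Atp2a2 and -0.36 to 0.46 for Atp2a1, but as wide as -1.25 to 0.38 for Trdn. On values that were not centred Atp2a2 passed as well (0.44, adjusted p = 0.0103), since all tumor arrays had the higher median.

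Ordered by centred mean, the unmarked muscle cells came first for 6 genes (Atp2a1, Atp2a2, Casq2, Mrln, Stac3 and Trdn) and the Tom+/Pecam1- tumor cells for 4 (Cacna1s, Casq1, Ryr1 and Sln). The first and second populations overlapped for Stac3 (0.79 ± 0.44 and 0.71 ± 0.21), Trdn (0.57 ± 1.21 and 0.49 ± 0.49) and Casq1 (1.91 ± 0.67 and 1.78 ± 0.89), and did not for the others. The share of all genes without such an overlap was not counted, so this only describes the genes. The unmarked Pecam1- tumor cells were neither first nor last for any of the 10 genes.

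Among the 10 genes, Cacna1s and Stac3 were the most alike over the 18 arrays, with a root mean square difference of 0.30 between their values after the array median and each gene's own mean were taken off. Casq1 and Trdn followed each other at 0.40, and Sln and Mrln were the farthest apart, at 1.84. Of the other genes tested, those closest to Sln were Ptch1 (0.42), the hedgehog receptor and a standard target of hedgehog signaling, Foxf2 (0.43), a forkhead transcription factor, and Hectd2 (0.45), where Sln itself varied by 1.25. Casq1 lay closest to Klhl41 (0.35), Myl1 (0.40) and Mypn (0.41), genes of the muscle fiber, and Trdn to Xirp2 (0.33), Mypn (0.37) and Mylk2 (0.39). The 3 genes closest to Casq2 were Gucy1b1 (0.42) and Gucy1a2 (0.48), subunits of the nitric oxide receptor guanylate cyclase, and Akap6 (0.51). Atp2a1 lay closest to Flnc (0.27), Ryr1 to Spats2l (0.22), Cacna1s to Fhl1 (0.16), Stac3 to Stau2 (0.20), Atp2a2 to Sox5 (0.17) and Mrln to Asb5 (0.53). These values describe the 18 arrays, which share their populations, and genes that vary little lie close to many others.

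A wider set of triad and reticulum genes was listed for their known place in this machinery (24 genes, 22 of them tested). In marked against unmarked muscle 14 of the 22 were lower and 3 higher, with a median of -1.0. Cacna2d1, the auxiliary subunit of the calcium channel, was 8.21-fold lower (-3.04 ± 0.14, adjusted p = 3.67e-11), and Tmem38b (-1.32), a counter-ion channel of the reticulum, Bin1 (-1.71), which shapes the transverse tubule, and Hrc (-2.08), a calcium-binding protein of the reticulum, were lower as well. The 3 that were higher were S100a1 (1.45), Fkbp1b (1.13; 0.60 with an adjusted p of 0.399 without muscle repeats 1 and 2) and Fkbp1a (0.64), which encode proteins that bind and tune the release channel.

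In the Tom+/Pecam1- against the Tom-/Pecam1- tumor cells 7 of the 22 were higher and 0 lower, with a median of 0.19. Srl, sarcalumenin, a calcium-binding protein of the reticulum, was 2.16-fold higher (1.11 ± 0.23, adjusted p = 0.00166) and Cacng1, another channel subunit, 2.35-fold (1.23 ± 0.28, adjusted p = 0.00349). Tmem38a (0.86, adjusted p = 0.00356) and Hrc (0.86, adjusted p = 0.00503) were higher too. The repeat number as a block left 5 of the 7, as Bin1 (adjusted p = 0.0613) and Cacna2d1 (adjusted p = 0.0911) no longer passed. In the Pecam1+ against the Pecam1- marked tumor cells 13 were lower and 4 higher (median -0.62). Cacna2d1 was 11.9-fold lower there (-3.58 ± 0.12, adjusted p = 3.49e-13), Bin1 (-1.91) and Asph (-0.98) were lower, and Fkbp1a (0.89), Stim1 (0.94), Orai1 (0.80) and Mtm1 (0.76) higher; Stim1 and Orai1 form the store-operated calcium entry of many cell types.

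**Figure D5:**
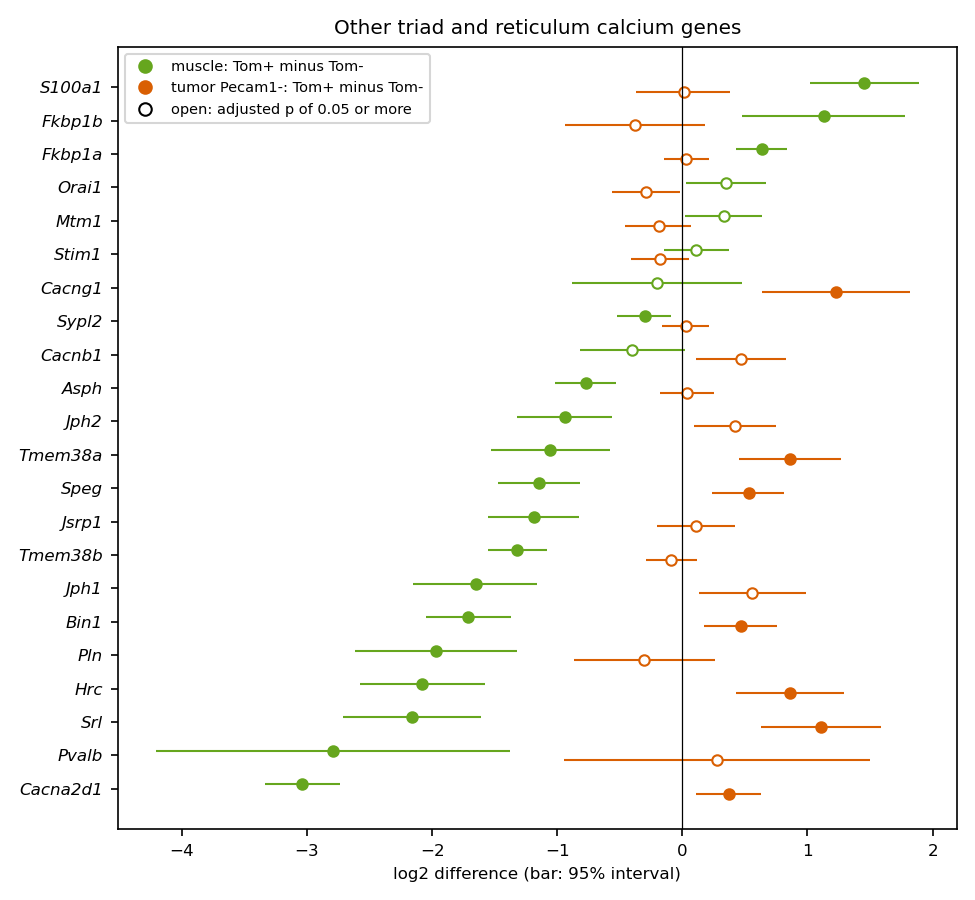
Log2 difference of marked minus unmarked cells (x axis) for the 22 tested triad and reticulum calcium genes other than the 10 (y axis, ordered by the muscle difference), in muscle (green) and in Pecam1- tumor cells (orange); bars are 95% intervals and open points have an adjusted p of 0.05 or more. In muscle 14 genes are lower and 3 higher, and in the tumor 7 are higher and 0 lower.

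Between the Tom+/Pecam1- tumor cells and unmarked muscle the wider set was mixed, with 10 of 22 lower and 3 higher (median -0.30), beside 23% lower and 24.1% higher over all genes. The repeat block gave 7 lower and 2 higher, leaving out muscle repeats 1 and 2 gave 6 and 2, and values that were not centred gave 6 and 6. Pvalb, parvalbumin, the calcium buffer of fast fibers, was 18.8-fold lower in the tumor cells (-4.23 ± 0.63, adjusted p = 3.91e-05), and Tmem38b was lower as well (-0.92). The channel subunits Cacng1 (1.70) and Cacnb1 (1.20) were higher, as was Cacna1s above. Between the 2 endothelial-rich populations 6 were lower and 3 higher, beside 18.5% and 15.7% of all genes, and 6 and 1 with the block. Without muscle repeats 1 and 2 these were 3 lower and 0 higher, and without centring the balance turned to 2 lower and 7 higher.

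Calcium genes known from other cell types (13 measured of 14 listed) gave no common direction. In marked against unmarked muscle 3 were higher and 6 lower (2 and 3 when blocked by repeat number), and in the Pecam1- tumor cells by the mark 1 was higher and 3 lower. In the latter Atp2b4, a plasma membrane calcium pump, was higher (0.57), and Slc8a1, the sodium-calcium exchanger (-0.85), Atp2a3, the pump of blood and endothelial cells (-0.89), and Cacna1c, the channel of heart and smooth muscle (-0.62; -0.45 with an adjusted p of 0.113 without day 38), were lower. Between Pecam1+ and Pecam1- marked tumor cells 5 were higher and 5 lower (5 and 3 with the block). Ryr2, the heart form of the release channel, and Cacna1c were 4.52-fold (-2.18) and 3.10-fold (-1.63) lower in Tom+/Pecam1- tumor cells than in unmarked muscle, where 5 of the 13 were lower and 1 higher (5 and 5 without centring), and Ryr2 was dim in all 3 tumor populations. Between the 2 endothelial-rich populations 5 of the 13 were lower in the tumor and 1 was higher, 5 and 0 with the block, and 3 and 5 without centring. The shares over all genes are those given above for each comparison.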

How the data were processed

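The values are log2 intensities as deposited, made with RMA and analysed in Partek per the submitters' processing notes, with no versions given. The table held 41345 probe sets on 18 arrays and 0 missing values. Probe sets with 1 gene symbol (23521) were kept, with the highest-mean probe set for each gene. Genes entered the tests when their value was above the array's 40th percentile in at least 3 arrays (16011 genes, all 10 calcium genes among them). Dim genes passing through 1 population, such as Sln, had to differ. Differences were fitted with limma 3.58.1 in R 4.3.3, 1 mean per population over the 18 arrays (13 residual and 3.84 prior degrees of freedom), two-sided, with Benjamini-Hochberg adjustment over all genes tested. Tumor and muscle were compared on values centred on the array median. Figures used Python 3.11.15 and matplotlib 3.10.9. The fit was tested on simulated data with independent noise for each array. Those data lacked the pairing of muscle arrays and the loss of repeat means in the tumor, both described below. That test therefore does not bear on either.

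The genes, the gene lists and the tests were chosen with earlier results of these data known. Besides the 10 genes, the text names up to 4 genes with the smallest adjusted p of each list in a comparison (all where 5 or fewer passed), and for likeness the 3 nearest genes; further named genes were chosen after their values were seen. The 11 salivary gland genes measured to describe muscle repeats 1 and 2 (4 of them over 1 log2 unit higher there than in repeat 3 in both populations) were chosen in the same way. Strit1 and Itpr1 had no probe set with a single symbol here, and Ryr3 was dim in all populations. Fibroblast markers (5) were all lower in marked muscle and none passed in Pecam1- tumor cells by the mark (0 of 5); of the heart markers Myl7 was dim in all populations.

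Same-numbered muscle arrays deviated together (r = 0.27 to 0.31 across genes, other pairs -0.19 to -0.09). The main fit did not use this pairing, which entered only where the repeat number was a block. In muscle by the mark, Ryr1 had an adjusted p of 0.00344 in limma with the block and of 0.000229 without it. In the tumor the mean over the populations was the same for every repeat number within 7.67e-05, so the deposited values lack the variation common to a repeat. The correlation of same-numbered arrays is void there, and p-values of the main fit tend to be too small. The block spends degrees of freedom on the repeats and is the more cautious fit there. In limma for tumor Pecam1- cells by the mark, it gave Ryr1 an adjusted p of 0.004 (0.000157 without it) and Trdn 0.0443 (0.0242). The labels call the samples biological repeats and say no more of their source, so p-values measure the spread between these samples.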

Additional observations from a re-analysis of the deposited data

Results flagged for a closer look

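Within groups of 4 arrays, 5 of the 30 sets of values examined held an array far from the other 3. The measure was Dixon's ratio of the gap to the range, at the 95% level (about 1 in 20 by chance). The 30 sets share arrays and are not independent, so 5 of 30 cannot be weighed against that rate. The deposited tumor values lack the variation common to a repeat, so a high value in 1 population is tied to lower ones in the others. Such an array cannot be read as a trait of its own cells alone. Of the 5, 3 were the same array, the day 38 repeat of the Tom+/Pecam1+ tumor cells, which read 5.50 for Ryr1, 5.32 for Stac3 and 6.87 for Casq2, each the highest of its group. Muscle precursor markers were highest in that array as well (6.35, against 5.27 to 5.62), and their part was not tested. The others were Trdn in repeat 2 of the same cells (4.54, high but below the 40th percentile) and Casq2 in repeat 1 of the Tom-/Pecam1- tumor cells (7.31, low).

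For 8 genes the difference between marked and unmarked cells itself differed between tumor and muscle, by limma's test of that difference. It was more positive in the tumor by 3.91 for Atp2a1, 3.34 for Casq1, 2.75 for Ryr1, 2.50 for Trdn, 2.03 for Casq2, 1.63 for Stac3, 1.39 for Atp2a2 and 1.12 for Cacna1s on the log2 scale. For Casq2 and Atp2a2 the tumor differences alone were 0.06 and 0.08 and did not pass the test. Over all genes tested 20.9% were more positive in the tumor in this sense and 18.5% less. The 2 contrasts were of unlike populations, since muscle was not divided by Pecam1. With only muscle repeat 3 left, the Casq2 value was 1.70.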

How the results depend on the processing

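Of the 10 genes, no difference that passed the test in the main or the changed fit reversed its sign, and no untested difference did (0 reversed). Sign changes of differences that passed in neither fit were not counted. Over all settings, each left-out array counted separately, 23 calls of these genes were lost, 4 of them at an adjusted p of 0.01, and 2 were gained. With the repeat number as a replicate block 7, 7, 9, 5, 1 and 8 of the genes passed in the 6 comparisons (muscle by the mark, tumor by the mark, tumor by Pecam1, the 2 of tumor against muscle, and the difference between the contrasts), as without it, and the block changed no call of the 10 genes. In the 2 comparisons of tumor against muscle the block joined same-numbered arrays of mice that differed in strain and age. Its counts there, also those of the gene lists, therefore show little. Over all genes the block left 2693 of 4065 calls in the Pecam1- tumor comparison. Leaving out 1 array at a time gave 6 to 8, 6 to 7, 9, 4 to 5, 1 and 8 genes. Without muscle repeats 1 and 2, which leaves 1 array per muscle population which is assumed to vary like the other populations, 2 of 8 genes passed between Tom+/Pecam1- tumor cells and unmarked muscle (5 with them), and over all genes 3629 of 6352 passed in muscle by the mark, 4960 of 7545 and 2769 of 5482 in the 2 tumor against muscle comparisons, and 3992 of 6319 in the difference of the contrasts. Without centring, 2 of 10 genes passed between the endothelial-rich populations (1 with it), 8444 genes passed in all, and the share that was higher was 90.5% (45.8% centred); for the other tissue comparison the share was 84.2% (51.2%). An adjusted p of 0.01 left 2440 genes in the Pecam1- tumor comparison and 3309 between the endothelial-rich populations. For the wider triad list, the settings gave 12 to 14 lower genes in muscle by the mark and 5 to 9 higher in the tumor by the mark. Levels below the 40th percentile limit Sln in every population but the Tom+/Pecam1- cells, and Trdn in the marked muscle and Tom+/Pecam1+ cells. They also limit Ryr1 and Mrln in some arrays of these 2 populations, and Trdn in some arrays of the unmarked muscle and Tom-/Pecam1- cells. In such arrays a smaller level could not be measured.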
